A study of Mus musculus with 4 samples.

Results

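The 47 genes described here were the DNA repair and checkpoint genes of intestinal stem cells (ISCs), chosen by name as rows of a count table of 52459 genes and grouped by repair pathway. ISCs had been sorted from wildtype C57/Bl6 mice as CD31-, CD45-, CD24med, CD166+, CD44high, GRP78low, EPHB2high and EPCAM+ crypt cells of the small intestine. Young ISCs (ISC_2mth) came from mice of 2 months and old ISCs (ISC_22mth) from mice of 22 months, with no treatment named for either age. Each age had 2 pools of 5 animals, and each pool gave 1 library, so a value stands for the average of a pool and n = 2 for each age. The p-values given here measure the spread between pools of different animals.

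ISCs divide at the base of the crypts and renew the epithelium, so lesions that escape repair can be copied and passed on. Damage is sensed by checkpoint kinases, which slow the cell cycle. Breaks across both strands are joined by homologous recombination or non-homologous end joining, damaged bases are removed by base excision, copying errors by mismatch repair, bulky adducts by nucleotide excision, and crosslinks by the Fanconi anaemia pathway. The comparison asked how much RNA of these genes young and old ISCs held.

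RNA was copied along whole transcripts by single primer isothermal amplification and sequenced as single-end reads, and the deposited values were raw read counts per gene. Depth was between 11662654 and 15975698 counts per library. Genes encoded in mitochondria took between 62.6% and 65.7% of all reads in the young libraries and between 72.9% and 73.8% in the old libraries, which left between 3852178 and 4593004 counts for all other genes. Levels are given as normalized CPM, that is counts relative to a library size adjusted by the TMM method, which scales libraries on the bulk of their genes. The stem cell genes Lgr5 and Olfm4 were abundant in every pool, with Lgr5 between 206.2 and 248.3 normalized CPM. The 8 ISC markers summed to 2133 and 1979 normalized CPM in the young pools against 1803 and 1992 in the old pools, and 0 of the 8 passed the test described below. Both old pools lay below both young pools in 4 of the 8 (50%, beside 23.6% of all genes tested), and at an unadjusted p under 0.05 3 were lower and 1 higher (beside 7.65% and 9.26% of all genes tested). Axin2, a Wnt target gene, had 148.7 and 128.0 normalized CPM in the young pools against 102.0 and 98.6 in the old pools (FDR = 0.0511), and Rnf43, a Wnt feedback gene, had 125.3 and 109.3 against 88.2 and 88.4 (FDR = 0.0876).

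The repair genes took 0.331% and 0.337% of the counts outside mitochondrially encoded genes in the young pools against 0.319% and 0.341% in the old pools. The ages overlapped in this share. A filter that asked of a gene over 5 reads and over 1 CPM in any library was passed by 46 of the 47, and by 13692 genes in all, which were tested together. Mgmt, which removes alkyl groups from guanine directly, did not pass this filter, with 7 and 3 counts in the young pools and 5 and 10 in the old pools.

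No repair gene passed the threshold between the ages in the main analysis. At an FDR under 0.05 (quasi-likelihood test of edgeR, adjusted by Benjamini-Hochberg over all genes tested), 0 of 46 were called higher and 0 lower in old ISCs, against 2.26% of all genes tested (1.63% higher and 0.628% lower). At an unadjusted p under 0.05, 9 of the 46 (19.6%) were found, 5 higher and 4 lower, beside 16.9% of all genes tested (9.26% higher and 7.65% lower). Limma voom also called 0 of 46, both with sample quality weights (2.34% of all genes called) and without (2.22%), as did DESeq2 (1.44%). EdgeR's likelihood ratio test called 3 higher (Nbn, Xrcc5 and Lig4) and 2 lower (Rad51c and Parp1), beside 4.46% of all genes tested. The median log2 fold change, old over young, was -0.0027 over the repair genes and -0.0049 over all genes tested. The amount of RNA per cell and the number of cells that held it cannot be told apart in these bulk samples.

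**Figure D1:**
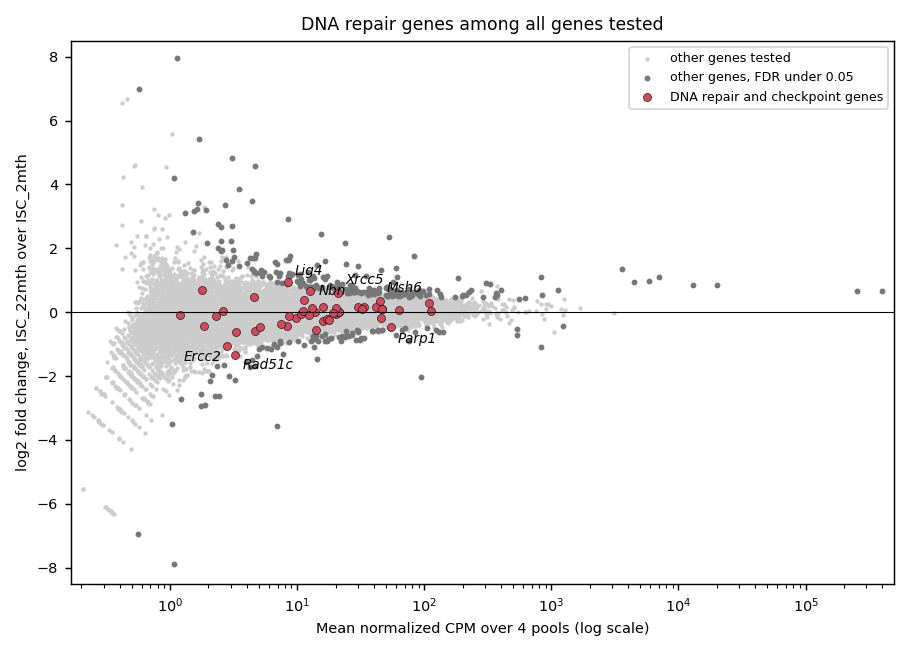
Log2 fold change of old over young ISCs (y axis) against the mean normalized CPM over the 4 pools (x axis, log scale) for all 13692 genes tested, with genes of FDR under 0.05 in dark grey and the 46 repair and checkpoint genes in red. The repair genes lie around 0, from -1.33 (Rad51c) to 0.95 (Lig4), and none is among the genes under the FDR threshold.

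The count of 0 depended on single pools. Without the replicate 1 pool of ISC_2mth it stayed at 0, beside 1.15% of all genes. Without replicate 2 of ISC_2mth, Lig4 was called higher and Rad51c lower (2.17% of all genes called), and without replicate 1 of ISC_22mth, Rad51c was called lower (4.80%). Without replicate 2 of ISC_22mth, Nbn, Xrcc5 and Lig4 were called higher and Parp1 lower (5.22%), and the median log2 fold change of the repair genes was -0.15. With 1 pool left at an age, that pool was assumed to vary like the others.

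Precision differed between genes. The 95% interval of the log2 fold change lay within 1 of 0 (a fold of 2 either way) for 34 of the 46 (73.9%), beside 62.0% of all genes tested. It lay within 0.5 of 0 (a fold of 1.41) for 17 of the 46 (37.0%), beside 21.0% of all genes. The repair genes were read more deeply than most, with a median of 14.0 normalized CPM against 8.03 over all genes tested. The ages overlapped in 21 of the 46, beside 52.4% of all genes tested, and in 27 (58.7%, beside 65.7% of all genes tested) the pools of an age lay further apart than the ages did. All old pools exceeded all young pools for 14 of the 46 (30.4%, beside 24.0% of all genes tested) and were below them for 11 (23.9%, beside 23.6%).

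Levels between genes were compared per length, as normalized CPM per kb of the longest coding transcript, averaged over the 4 pools. The highest was Ddb1, the adaptor that binds UV-damaged DNA with Ddb2 and links substrates to a ubiquitin ligase, at 25.5. It was followed by Parp2, which marks strand breaks with poly(ADP-ribose), at 24.1, and by Rad50, the coiled-coil ATPase of the complex that first binds broken ends, at 21.3. Parp1, the main poly(ADP-ribose) polymerase, had 14.1 and Rad18, a ubiquitin ligase for stalled forks, 12.5. The lowest were Ercc2 at 0.783, Rad51c at 0.824, Apex1 at 0.956, Xrcc2 at 1.02 and Fanca at 1.04. Divided by the whole exonic length instead, Rad50 ranked 1, ahead of Ddb1, Parp2 and Parp1, and Rad18 ranked 9. The lowest were then Fanca at 0.532, Xrcc4 at 0.613, Xrcc2 at 0.634, Ercc2 at 0.672 and Mutyh at 0.678, with Rad51c at rank 41 and Apex1 at rank 39 of the 46. Exons of Pip4p1, on the opposite strand, overlapped 61.7% of the exonic length of Apex1, and exons of other genes overlapped 42.7% of that of Ercc2. Without a known strand setting, reads in these overlaps could not be assigned with certainty. Smaller overlaps of this kind touched Lig3 (25.1%), Ddb2 (23.8%), Fanci (16.0%), Rad54l (15.4%), Ogg1 (10.6%) and Fanca (10.5%).

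**Figure D2:**
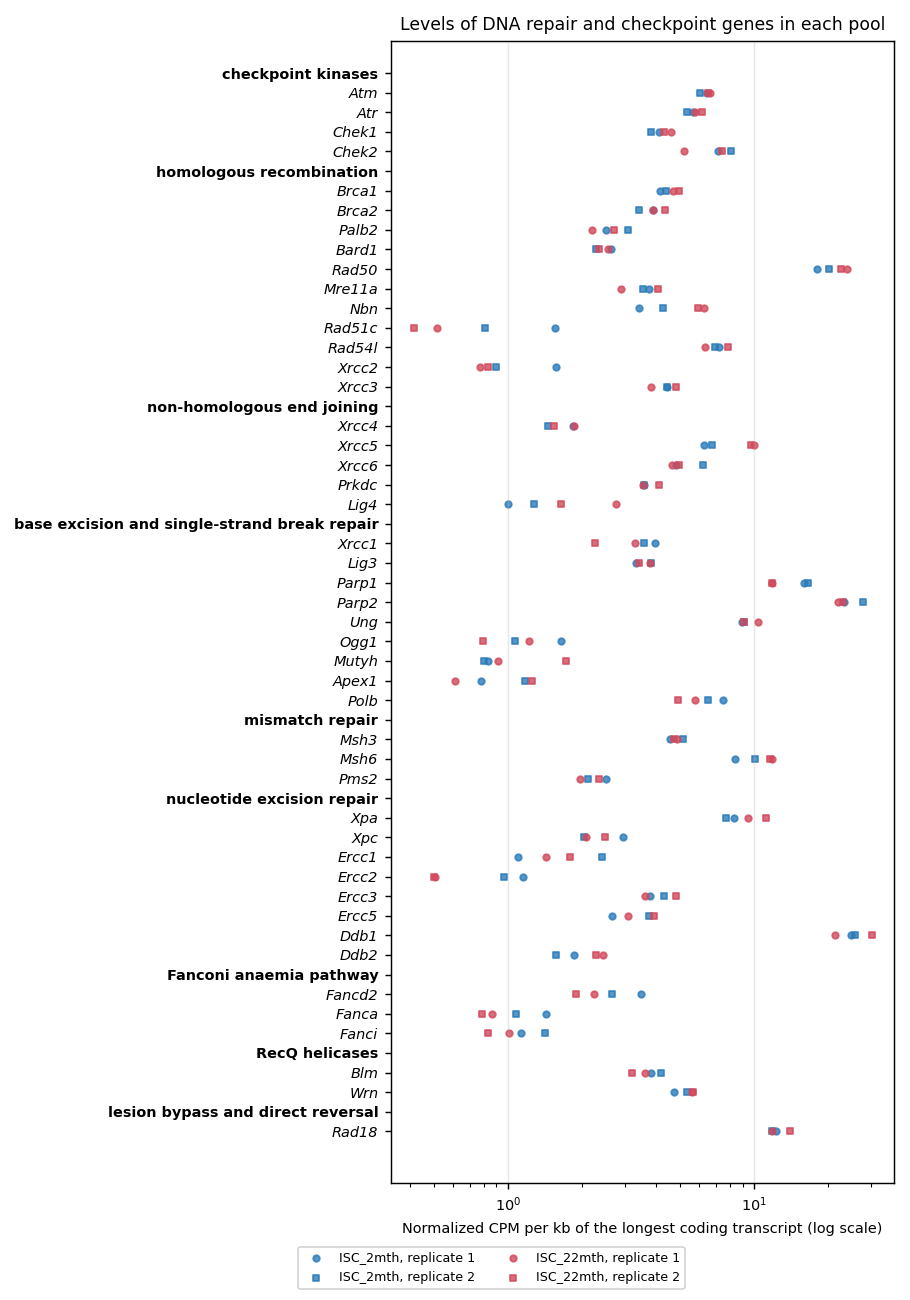
Level of each repair gene tested in each of the 4 pools, as normalized CPM per kb of the longest coding transcript (x axis, log scale), by repair pathway (y axis). Blue symbols are ISC_2mth and red symbols ISC_22mth, with circles for replicate 1 and squares for replicate 2, and the means over the 4 pools run from 0.783 (Ercc2) to 25.5 (Ddb1).

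Promoters were read from RefSeq for 37 of the 47 genes (GRCm38.p6, 250 bases before to 50 after the start of each gene). The letters TTTCCCGC or TTTGGCGC, a core bound by E2F factors, which drive genes of the replicating cell, were searched on both strands. They were found in 7 of the 37 promoters (18.9%), those of Chek2, Brca2, Bard1, Rad51c, Xrcc6, Msh3 and Msh6, beside 3.49% of the promoters of 9438 genes tested. The 4 stretches of 60 bases below are shown because their genes span the differences of this group, with the motif or its reverse complement in capitals. They lie at chr11:87404926-87404985 (minus strand, Rad51c), chr17:87975039-87975098 (plus strand, Msh6), chr13:92355172-92355231 (minus strand, Msh3) and chr5:150522427-150522486 (plus strand, Brca2). The motif began 5 bases before the RefSeq start of Rad51c, 15 bases after that of Msh6, 202 bases before that of Msh3 and 168 bases before that of Brca2.
Rad51c: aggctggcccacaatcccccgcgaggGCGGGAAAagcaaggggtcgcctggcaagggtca
Msh6: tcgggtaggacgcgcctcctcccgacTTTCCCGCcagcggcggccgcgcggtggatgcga
Msh3: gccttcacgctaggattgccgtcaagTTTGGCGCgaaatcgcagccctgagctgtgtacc
Brca2: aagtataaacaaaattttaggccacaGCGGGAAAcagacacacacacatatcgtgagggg

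The genes with this motif did not share a direction. Their log2 fold changes ran from -1.33 (Rad51c) over -0.27 (Chek2), -0.21 (Xrcc6), -0.01 (Msh3) and -0.00014 (Bard1) to 0.17 (Brca2) and 0.34 (Msh6). A match of letters describes the promoter and does not show that a factor binds there. The letters CCAAT were found in 20 of the 37 promoters (54.1%), beside 43.1% of all. The letters TTTGAA, the core of an element of cell cycle genes, were found in 2 of the 37 (5.41%, beside 14.9% of all), and the p53 core motif, a single copy of the decamer that p53 binds in pairs, in 1 (2.70%, beside 8.22%). The starts of 19 of the 47 genes (40.4%) lay within 1000 bp of the start of a protein-coding gene on the opposite strand or overlapped it there by up to 300 bp, beside 13.8% of 11192 protein-coding genes tested. Such head-to-head pairs included Brca1 with Nbr1 at 194 bp, Atm with Npat at 307 bp and Fancd2 with Emc3 at 30 bp. Fancd2 had a log2 fold change of -0.57 and Emc3 one of 0.44, and neither passed the threshold (FDR of 0.142 and 0.182).

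**Figure D3:**
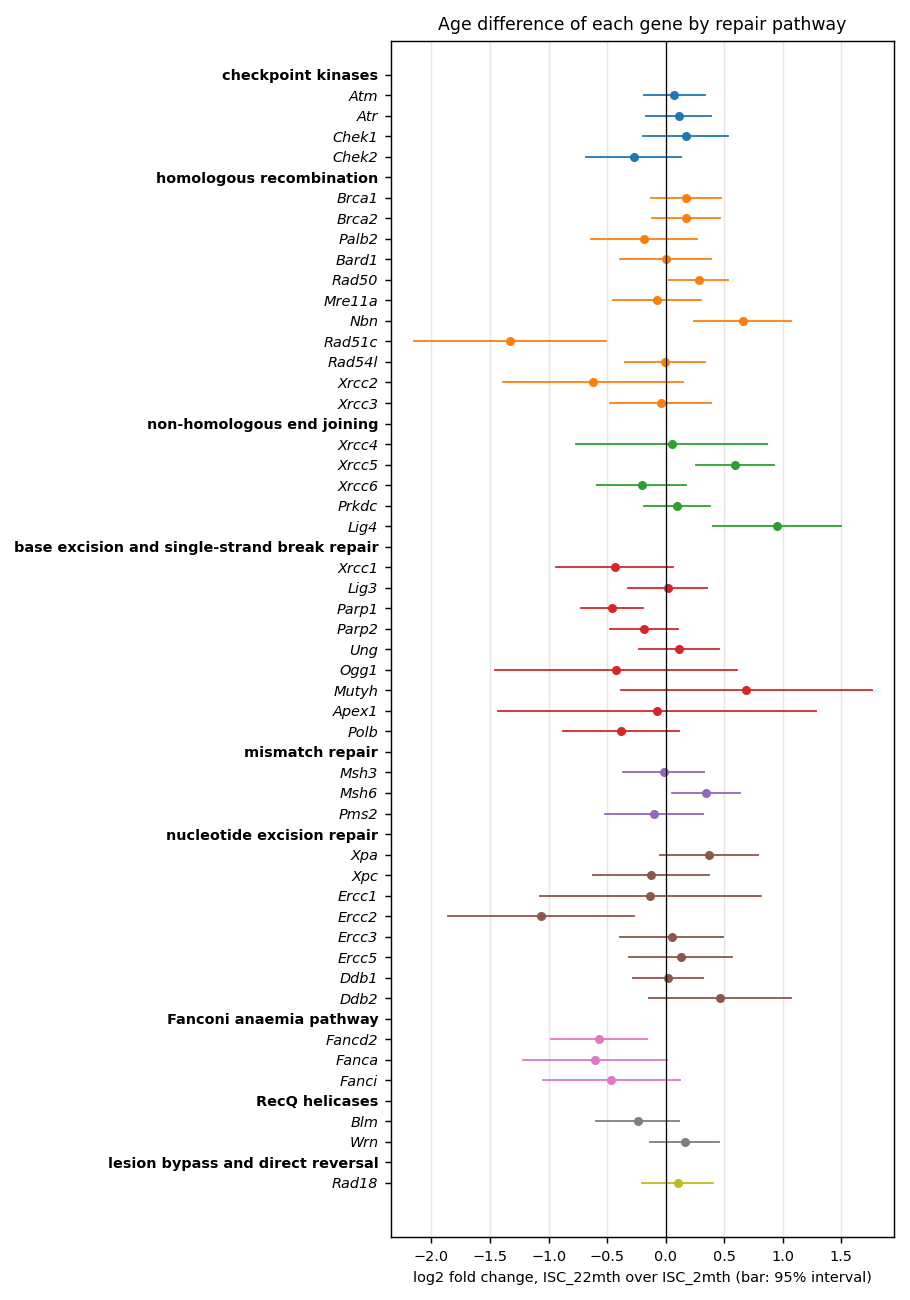
Log2 fold change of old over young ISCs (x axis) for each of the 46 repair genes tested, by pathway (y axis), with points for the edgeR estimate and bars for its 95% interval, unadjusted. Intervals of 9 genes leave out 0, with Xrcc5, Lig4, Nbn, Msh6 and Rad50 to the right and Parp1, Rad51c, Fancd2 and Ercc2 to the left.

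Among the 4 checkpoint kinases, all intervals of the log2 fold change lay between -0.68 and 0.53. Atm, which responds to broken ends, had 63.5 and 59.6 normalized CPM in the young pools against 65.5 and 64.0 in the old pools, a log2 fold change of 0.07 with an interval from -0.19 to 0.33. Atr, which responds to single-stranded DNA at stalled forks, had one of 0.11 (-0.16 to 0.39). Chek1, the effector kinase downstream of Atr, had 15.7 and 14.5 normalized CPM in the young pools against 17.6 and 16.4 in the old pools, with a log2 fold change of 0.17 (-0.19 to 0.53, FDR = 0.667). These 3 of the 4 kinases (75%, beside 24.0% of all genes tested) had both old pools slightly above both young pools, with intervals that include 0. Chek2, the effector kinase downstream of Atm, had 16.4 and 18.4 in the young pools against 11.8 and 17.0 in the old pools, so the ages overlapped (log2 fold change -0.27, interval -0.68 to 0.13, FDR = 0.505). Its old pools lay further apart than the ages, and the log2 fold change of Chek2 was -0.03 without replicate 1 of ISC_22mth and -0.55 without replicate 2.

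Homologous recombination held 11 genes, with a median log2 fold change of -0.01. Rad51c, which acts in strand exchange during recombination, was read 89 and 48 times in the young pools and 27 and 20 times in the old pools. Its normalized CPM were 6.14 and 3.18 in the young pools against 2.04 and 1.64 in the old pools, and its log2 fold change was -1.33 (SE 0.39, FDR = 0.0830). The old pools were both below the young pools, and the replicate 1 pool of ISC_2mth stood highest. Without that pool, the log2 fold change of Rad51c was -0.78. Xrcc2, which acts in a complex with Rad51c, had 5.11 and 2.92 in the young pools against 2.50 and 2.70 in the old pools. Here too replicate 1 of ISC_2mth stood far above the rest, and the log2 fold change was -0.62 (interval -1.39 to 0.14) with that pool and -0.16 without it. Xrcc3, which also binds Rad51c, had one of -0.04 (-0.48 to 0.39).

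The complex that binds broken ends and recruits Atm consists of Mre11a, Rad50 and Nbn. Nbn (chr4:15957925-15992589, plus strand), its regulatory subunit, had 8.69 and 10.9 normalized CPM in the young pools against 15.9 and 15.0 in the old pools, with a log2 fold change of 0.66 (SE 0.20, FDR = 0.0885). Rad50 had 93.3 and 104.5 in the young pools against 123.9 and 116.7 in the old pools, with a log2 fold change of 0.28 (SE 0.12, FDR = 0.237). In both genes the old pools lay above the young pools without overlap. Mre11a, the nuclease of the complex, had 21.2 and 20.1 in the young pools against 16.3 and 23.1 in the old pools, which overlapped (log2 fold change -0.07). The old pools of Mre11a lay on either side of its young pools. The differences between their fold changes were not tested.

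Brca1 and its partner Bard1, which form a ubiquitin ligase that promotes recombination, had log2 fold changes of 0.17 (-0.12 to 0.47) and -0.00014 (-0.39 to 0.39). Brca2, a mediator of strand exchange, had 0.17 (-0.12 to 0.46), and Palb2, which bridges Brca1 and Brca2, had -0.19 (-0.64 to 0.27). Rad54l, a motor that helps strand invasion, had -0.01 (-0.35 to 0.34). The ages overlapped in Brca2, Palb2, Bard1 and Rad54l, whereas both old pools of Brca1 lay above both young pools.

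Non-homologous end joining held the genes of lowest p. Xrcc5 encodes Ku80, which together with Ku70, the product of Xrcc6, forms the ring that slides onto a broken end. Xrcc5 (chr1:72307421-72394952, plus strand, GRCm38) was read 233 and 262 times in the young pools and 337 and 303 times in the old pools. Its normalized CPM were 16.1 and 17.4 in the young pools against 25.5 and 24.8 in the old pools, and its log2 fold change was 0.59 (SE 0.16, interval 0.26 to 0.92, FDR = 0.0602). The pools of each age lay close together and the ages did not overlap. Xrcc6 had 15.9 and 20.5 in the young pools against 15.3 and 16.3 in the old pools, with overlap and a log2 fold change of -0.21 (-0.58 to 0.17). Leaving out each pool in turn moved the log2 fold change of Xrcc6 between -0.38 and -0.01.

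Lig4 (chr8:9969049-9977686, minus strand), the ligase that seals the ends, was read 73 and 97 times in the young pools and 183 and 101 times in the old pools. Its normalized CPM were 5.04 and 6.43 in the young pools against 13.8 and 8.27 in the old pools, and its log2 fold change was 0.95 (SE 0.26, interval 0.41 to 1.49, FDR = 0.0639). The old pools exceeded both young pools, and replicate 1 of ISC_22mth stood highest. Without that pool, the log2 fold change of Lig4 was 0.53, and without replicate 2 of ISC_22mth it was 1.27. Xrcc4, the scaffold that holds Lig4, had 2.83 and 2.25 in the young pools against 2.88 and 2.38 in the old pools (log2 fold change 0.05, interval -0.77 to 0.87). Prkdc, the large kinase that joins Ku at the end, had a log2 fold change of 0.10 (-0.18 to 0.38).

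Base excision and repair of breaks in a single strand held 9 genes, with a median log2 fold change of -0.18. Parp1 (chr1:180568924-180601254, plus strand) was read 899 and 970 times in the young pools and 606 and 563 times in the old pools. Its normalized CPM were 62.0 and 64.3 in the young pools against 45.9 and 46.1 in the old pools, a log2 fold change of -0.46 (SE 0.13, interval -0.72 to -0.19, FDR = 0.0679). The pools of each age were close together and the old pools lay below the young pools. Parp2 had 44.2 and 52.7 in the young pools against 41.6 and 43.7 in the old pools (log2 fold change -0.18, interval -0.47 to 0.10). Xrcc1, the scaffold that Parp1 recruits, had 10.0 and 9.08 in the young pools against 8.32 and 5.73 in the old pools (log2 fold change -0.44, interval -0.93 to 0.06, FDR = 0.365). Polb, the gap-filling polymerase, had -0.38 (-0.87 to 0.11). Leaving out each pool in turn moved the log2 fold change of Xrcc1 between -0.73 (without replicate 1 of ISC_22mth) and -0.19 (without replicate 2 of ISC_22mth), and that of Parp2 between -0.31 and -0.06. In these 4 of the 9 genes, the old pools were both below the young pools, beside 23.6% of all genes tested.

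The ages overlapped in Lig3, Ogg1 and Apex1, whereas the old pools of Ung and Mutyh were both above the young pools, but narrowly. Ung had 19.1 and 19.5 normalized CPM in the young pools against 22.2 and 19.6 in the old pools. Mutyh was read 20 and 20 times in the young pools and 20 and 35 times in the old pools, so replicate 1 of ISC_22mth lay above only after scaling. Lig3, the ligase that acts with Xrcc1, had a log2 fold change of 0.02 (-0.32 to 0.36). Ung, which removes uracil, had 0.12 (-0.22 to 0.46). Ogg1 and Mutyh, glycosylases that act where guanine is oxidized, had low counts and wide intervals, from -1.46 to 0.61 for Ogg1 and from -0.38 to 1.76 for Mutyh. Apex1, the endonuclease for abasic sites, was read 14 and 22 times in the young pools and 10 and 19 times in the old pools, with an interval from -1.43 to 1.28. This interval includes a fold of 2 in either direction, so these 4 pools do not settle whether Apex1 differed by that much.

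In mismatch repair, Msh6, which helps to find base mismatches, had 35.7 and 43.0 normalized CPM in the young pools against 50.6 and 49.4 in the old pools. Its log2 fold change was 0.34 (SE 0.14, interval 0.06 to 0.63, FDR = 0.205), with both old pools above both young pools, and it was 0.22 without replicate 1 of ISC_2mth. Msh3, which helps to find longer loops, had 18.0 and 20.3 in the young pools against 19.3 and 18.7 in the old pools, which overlapped (log2 fold change -0.01). Pms2, a subunit of the complex that nicks the new strand, had 13.8 and 11.6 in the young pools against 10.7 and 12.9 in the old pools (log2 fold change -0.10, FDR = 0.845).

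Nucleotide excision repair held 8 genes, with a median log2 fold change of 0.04. Ercc2, which encodes the XPD helicase of the transcription factor TFIIH, was read 60 and 52 times in the young pools and 24 and 22 times in the old pools. Its normalized CPM were 4.14 and 3.45 in the young pools against 1.82 and 1.80 in the old pools, a log2 fold change of -1.06 (SE 0.38, interval -1.86 to -0.27, FDR = 0.156). The old pools lay below the young pools, but the overlap of Ercc2 exons with the antisense gene Gm26852 over 1025 bases and with Klc3 over 744 bases, both on the opposite strand, leaves the origin of part of these reads uncertain. Ercc3, the other TFIIH helicase, had a log2 fold change of 0.05 (-0.39 to 0.49). Xpa, which checks the lesion and positions the nucleases, had 10.3 and 9.54 in the young pools against 11.7 and 13.9 in the old pools (log2 fold change 0.37, FDR = 0.365), with both old pools higher.

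Of the damage sensors in this pathway, Ddb2 had 4.14 and 3.51 normalized CPM in the young pools against 5.45 and 5.08 in the old pools (log2 fold change 0.46, interval -0.15 to 1.07). Ddb1 had 110.8 and 115.1 in the young pools against 95.1 and 134.2 in the old pools, so its old pools enclosed its young pools. Xpc, the sensor of distorted DNA, had a log2 fold change of -0.13 (-0.62 to 0.37). The nucleases that cut beside the lesion had -0.13 (Ercc1, interval -1.08 to 0.81) and 0.13 (Ercc5, interval -0.31 to 0.57).

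The 3 Fanconi anaemia genes had both old pools below both young pools, as did 23.6% of all genes tested. Fancd2 and Fanci form the clamp that closes on DNA at a crosslink, and Fanca belongs to the ubiquitin ligase complex that locks it. Fancd2 was read 278 and 221 times in the young pools and 163 and 127 times in the old pools, or 19.2, 14.6, 12.3 and 10.4 normalized CPM (log2 fold change -0.57, SE 0.20, FDR = 0.142). Fanca had 6.42 and 4.84 in the young pools against 3.86 and 3.52 in the old pools (log2 fold change -0.61, SE 0.29, FDR = 0.303). Fanci had 5.24 and 6.56 in the young pools against 4.69 and 3.85 in the old pools (log2 fold change -0.46, interval -1.05 to 0.12). The 3 genes lay in 1 direction, but none passed the threshold. Without replicate 1 of ISC_2mth, the log2 fold changes of Fancd2 and Fanca were -0.36 and -0.39, and without replicate 2 of ISC_2mth that of Fanci was -0.30. Among 16 further Fanconi genes tested, the old pools were both below the young pools in 3 and above them in 2 (beside 23.6% and 24.0% of all genes tested), and their median log2 fold change was 0.06.

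Of the RecQ helicases, Blm, which dissolves crossed strands, had 18.2 and 20.1 normalized CPM in the young pools against 17.2 and 15.2 in the old pools (log2 fold change -0.24, interval -0.60 to 0.12, FDR = 0.508). Wrn, which also carries an exonuclease, had 29.8 and 33.4 in the young pools against 35.2 and 35.5 in the old pools (log2 fold change 0.16, interval -0.13 to 0.46, FDR = 0.600). The ages did not overlap in either gene, with 1 below and 1 above, where the old pools were both below in 23.6% and both above in 24.0% of all genes tested. Leaving out each pool in turn gave -0.33 to -0.15 for Blm and 0.08 to 0.24 for Wrn on the log2 scale. Rad18, which opens lesion bypass by marking PCNA with ubiquitin, had 31.6 and 30.5 in the young pools against 30.6 and 36.1 in the old pools (log2 fold change 0.10, FDR = 0.774).

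Ratios of reads between partner genes within a pool do not depend on how libraries are scaled. They were formed for 15 pairs, chosen after the counts had been seen, and are given as a description, since 2 pools against 2 cannot give an exact permutation p below 0.333. The ratio of Xrcc5 to Xrcc6 was 1.01 and 0.845 in the young pools against 1.67 and 1.52 in the old pools, and that of Lig4 to Xrcc4 was 1.78 and 2.85 in the young pools against 4.82 and 3.48 in the old pools. Both ratios lay above the young pools in both old pools. The ratio of Msh6 to Msh3 was 1.98 and 2.11 in the young pools against 2.62 and 2.64 in the old pools. Parp1 to Parp2 gave 1.40 and 1.22 in the young pools against 1.10 and 1.05 in the old pools. In old pools the ratio of Msh6 to Msh3 was thus above, and that of Parp1 to Parp2 below, the ratios of both young pools. Rad50 to Nbn gave 10.7 and 9.62 in the young pools against 7.80 and 7.79 in the old pools. Over the 15 pairs, the old pools lay above the young pools in 6, below them in 5 and overlapped them in 4, among them Atm to Atr, with 1.38 and 1.37 in the young pools against 1.41 and 1.28 in the old pools. The ages overlapped in 52.4% of all single genes tested, and the share over other gene pairs was not computed.

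**Figure D4:**
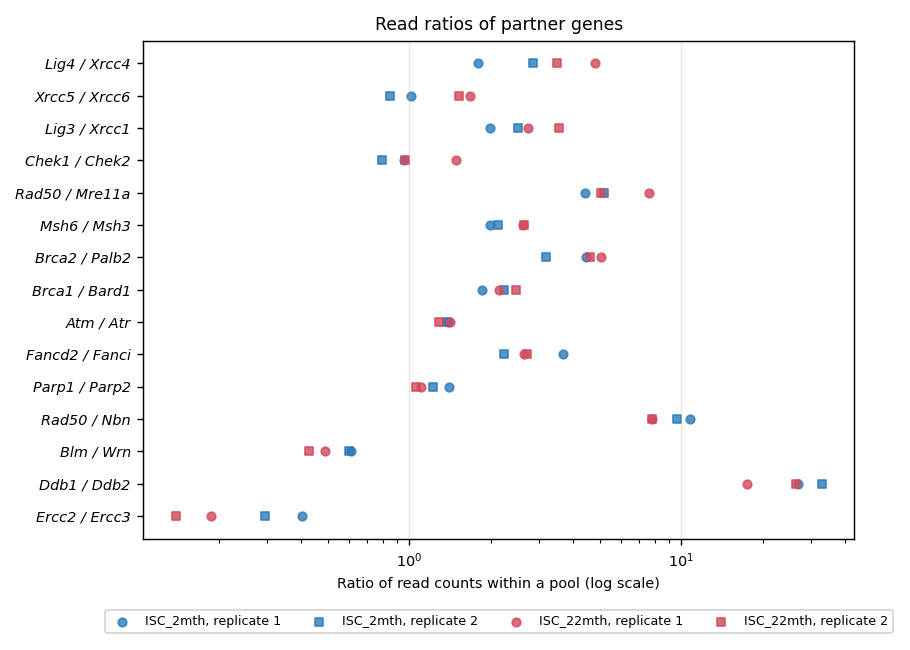
Ratio of read counts of 2 partner genes within each pool (x axis, log scale) for 15 pairs (y axis), with blue for ISC_2mth, red for ISC_22mth, circles for replicate 1 and squares for replicate 2. Colours separate fully for Xrcc5 to Xrcc6 (1.01 and 0.845 against 1.67 and 1.52) and overlap for Atm to Atr.

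Differences near the threshold were read under other settings. Of the scalings, RLE size factors and TMM without mitochondrial and ribosomal RNA-like genes called 0 of 46 (2.26% and 2.28% of all genes called) and the upper quartile called Parp1 lower (2.12%). With no filter on low counts, Xrcc5 and Lig4 were called higher and Rad51c and Parp1 lower (2.24%), with edgeR's own filter 0 were called (2.02%), and with at least 10 counts required in every library Parp1 was called lower (2.11%). Total counts as the scale called 21 of 46 lower and 0 higher. Of all 13692 genes tested, 4554 were called lower there, and 34.0% in either direction. With that scale, all genes tested had a median log2 fold change of -0.50, and the repair genes had the same median of -0.50. Relative to that shift, Xrcc5 had a log2 fold change of 0.60, Lig4 of 0.95, Nbn of 0.67, Parp1 of -0.45 and Rad51c of -1.34. Under the other settings Xrcc5 stayed between 0.46 and 0.64, and Parp1 between -0.50 and -0.39. Correction for gene length and GC content by offsets called 0 of 46 (1.31%) and gave 0.46 for Xrcc5 (FDR = 0.179), 0.83 for Lig4 (FDR = 0.125) and -0.39 for Parp1 (FDR = 0.148) by edgeR's quasi-likelihood test.

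**Figure D5:**
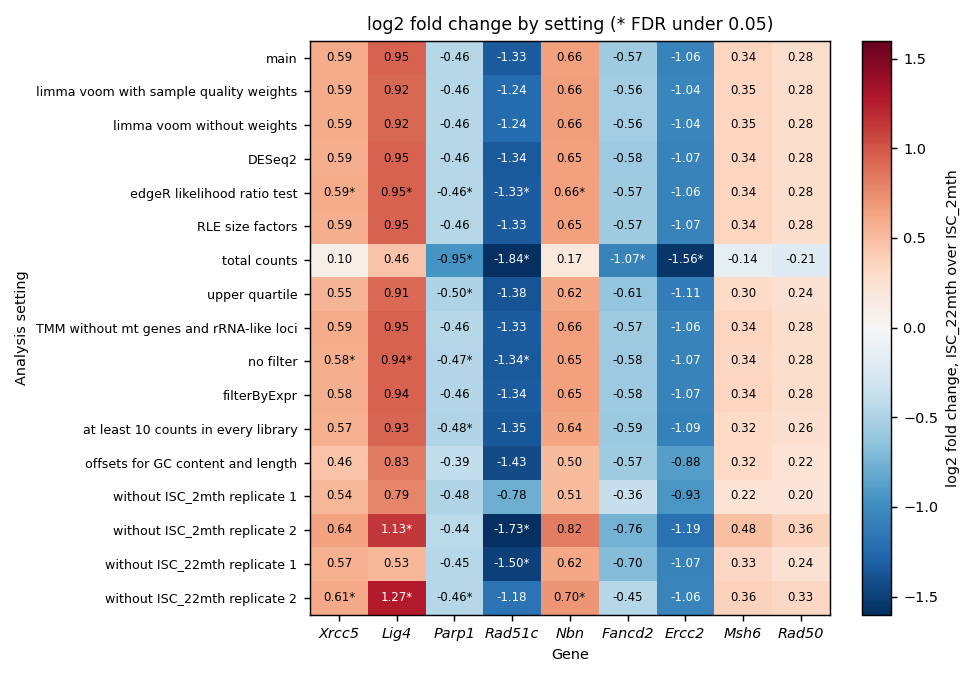
Log2 fold change of old over young ISCs (colour and printed value) for the 9 repair genes with an unadjusted p under 0.05 (x axis) under the main and other analysis settings (y axis), with a star at FDR under 0.05. Xrcc5, Lig4 and Nbn stay above 0 and Parp1, Rad51c, Fancd2 and Ercc2 below 0 in all rows, while Msh6 and Rad50 turn below 0 under total counts, at -0.14 and -0.21.

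Of 122 further repair genes of the same pathways, 121 were tested, 1 was called higher in old ISCs and 0 lower by edgeR's quasi-likelihood test, beside 2.26% of all genes tested. At an unadjusted p under 0.05, 8 were higher and 7 lower, beside 16.9% of all genes tested, and the median log2 fold change was 0.01. The gene called was Parp3, a mono-ADP-ribose transferase that assists end joining, with 5 and 4 counts in the young pools and 37 and 34 in the old pools. Parp3 passed the filter only through the old pools, so it could be called in no other direction. Its log2 fold change was 3.16 (SE 0.62, FDR = 0.0112), and the ages did not overlap. Parp3 was not called by voom without weights or with at least 10 counts required in every library, where it was not tested. Next by p were Rbbp8, which starts the trimming of ends, with 17.8 and 20.5 normalized CPM in the young pools against 26.6 and 31.4 in the old pools (log2 fold change 0.60, FDR = 0.0571), and Tipin, which protects forks, with a log2 fold change of 0.51 (FDR = 0.170).

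Genes of the cell cycle and of the p53 response were read beside the repair genes. None of the 20 S phase genes or of the 20 genes of G2 and mitosis was called, with median log2 fold changes of -0.01 and 0.02 and with 1 higher and 1 lower in each list at an unadjusted p under 0.05, beside 9.26% higher and 7.65% lower of all genes tested. Of the S phase genes, Rrm2, a subunit of ribonucleotide reductase, had 23.7 and 25.6 normalized CPM in the young pools against 34.6 and 37.8 in the old pools (log2 fold change 0.55, FDR = 0.0510). Among the 20 p53 target genes 1 was called higher (beside 1.63% of all genes tested), Perp, a desmosomal protein, with 27.7 and 37.0 in the young pools against 52.7 and 45.0 in the old pools (log2 fold change 0.60, FDR = 0.0472). The call of Perp was lost under DESeq2, the upper quartile, edgeR's own filter, at least 10 counts in every library, the offsets for gene length and GC content, and without replicate 1 of ISC_2mth. At an unadjusted p under 0.05, 4 p53 target genes were higher and 1 lower (beside 9.26% and 7.65% of all genes tested), and the median of the list was -0.04.

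Some markers of enterocytes, Paneth cells, tuft cells and leukocytes were called higher in old ISCs, beside 1.63% of all genes tested, whereas no goblet, enteroendocrine or endothelial and stromal marker was called. Of 7 enterocyte markers 3 were called higher in old ISCs (Fabp1, Sis and Fabp2), and the list summed to 226.0 and 343.6 normalized CPM in the young pools against 672.1 and 557.8 in the old pools. Of 6 Paneth cell markers 2 were called higher (Defa17 and Defa24), and the list summed to 695.5 and 526.4 in the young pools against 1607 and 591.8 in the old pools, so that the sums overlapped between the ages. Paneth markers were highest in replicate 1 of ISC_22mth, the pool that also held the highest sum of enterocyte markers. Several repair genes were highest in that pool, among them Lig4, Xrcc5, Nbn, Rad50 and Msh6, while others, such as Rad51c and Parp1, were highest in a young pool. Of 3 tuft cell markers tested Dclk1 was called higher, with 4 and 4 counts in the young pools against 42 and 19 in the old pools. It passed the filter only through the old pools, so it could not have been called lower. In the other tuft cell markers tested the ages overlapped, with log2 fold changes of 0.94 (Trpm5) and -0.21 (Pou2f3). Of 14 leukocyte markers only 2 passed the filter and were tested, and both were called higher. Itgam had 148 and 196 counts in the young pools against 254 and 252 in the old pools. Ccr2 had 0 and 0 in the young pools against 13 and 16 in the old pools. Since Ccr2 passed the filter only through the old pools, it could be called in no other direction. The defining leukocyte gene Ptprc had 2 counts in 1 old pool and 0 in the others, and Cd3g, Cd4, Cd79a and Tyrobp had 0 in all pools. Of 5 goblet cell markers 0 were called, with sums of 1612 and 2110 in the young pools against 2190 and 1709 in the old pools. Of 4 enteroendocrine markers tested 0 were called, with sums of 26.2 and 123.5 in the young pools against 103.7 and 76.6 in the old pools. Of 8 endothelial and stromal markers 1 was tested and 0 were called. The part of these cells in the repair genes' values was not tested.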

How the data were processed

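The authors trimmed reads with Trimmomatic (version 0.30), aligned them with STAR (2.4.2a) to GRCm38, counted reads in exons of GENCODE genes with featureCounts, and deposited raw counts per gene, with no normalization. The strand setting is not given in the sources used here. Ages and replicate numbers came from the sample labels.

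A gene was kept if any library held over 5 reads of it and over 1 CPM. Counts were scaled by TMM and tested with edgeR 4.0.16 (R 4.3.3; glmQLFit and glmQLFTest, no covariate), adjusted by the Benjamini-Hochberg method over 13692 genes, at FDR 0.05. Standard errors came from the fold change and the F value. Limma 3.58.1, DESeq2 1.42.0 and 17 alternatives in all were run, and the fits were tested on simulated counts. Reads carried no molecular identifiers, so amplified copies of a molecule could not be told apart. The intervals given came from the edgeR fit, which estimates the spread between pools, each with its own library. A floor of 3 counts was between 0.199 and 0.246 normalized CPM. Replicate pools differed by more than sampling noise (chi-square per gene of 9.42 and 7.11).

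Members and lists were chosen with earlier results of these data known. Values in every library were given for the 2 genes of lowest p in each pathway and for genes failing the filter, and levels for the 5 highest and 5 lowest per length. Of other repair genes the 3 of lowest p were named, and of context genes those called, not all of them with values in every library. Values of further genes were added after they were seen. Lengths, positions and overlaps came from GENCODE vM21 on the same build, matched by symbol.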

Additional observations from a re-analysis of the deposited data

How the results depend on the processing

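Counts of repair genes called were 0 higher and 0 lower in the main analysis and in voom with and without weights, DESeq2, RLE size factors, TMM without mitochondrial and ribosomal RNA-like genes, filterByExpr and GC and length offsets. They were 3 higher and 2 lower with the likelihood ratio test, 2 and 2 with no filter, 0 and 1 with the upper quartile and with at least 10 counts in every library, and 0 and 21 with total counts, where the median log2 fold change was -0.50, as over all genes. There 18 repair genes changed sign, of which Atm (-0.42), Lig3 (-0.47) and Ddb1 (-0.47) also passed the threshold. Replicate numbers did not pair the pools by the criterion used, which asks for labels or at least 3 pairs (correlation of deviations -0.0014 over 13692 genes and 0.26 over the 46 repair genes), and a block on the replicate number called 3 higher and 2 lower, with 623 of all genes tested. Leaving out each pool gave 0 to 3 higher, 0 to 1 lower and medians from -0.15 to 0.043.

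Other repair genes called, 1 in the main analysis, were 0 with voom without weights and with at least 10 counts, 2 with the likelihood ratio test, no filter and the block, 42 with total counts, and 1 to 3 without a pool. Genes called among the S phase, mitosis and p53 lists, also 1, were 2 with weighted voom, the likelihood ratio test, no filter and the block, 0 with DESeq2, the upper quartile, filterByExpr, at least 10 counts and the offsets, 30 with total counts, and 0 to 1 without a pool. These alternatives for the other lists were chosen after seeing the data. Unless its construction shows it, the cause of a changed count was not tested. Set against the alternatives, values of single repair genes stayed on their side of the threshold in 738 comparisons and passed it only in the alternative with the same sign in 41 and with the opposite sign in 3. The sign changed in 56 comparisons, with or without passing the threshold. Total counts gave 18 of the 41, all 3 of the opposite sign and 18 of the 56. Of the 46, 10 lay under 5 normalized CPM, Rad51c and Ercc2 among them, and the part of depth in their intervals was not tested.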
